A study of Schizosaccharomyces pombe with 4 samples.

Results

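Divergent promoters are the gaps between neighbouring coding genes that are transcribed away from each other. The 779 described here are those without an A+T-rich island, and they were measured in a Rad52 chromatin immunoprecipitation (ChIP) from fission yeast, Schizosaccharomyces pombe. A gap was taken where the reference annotation puts the leftward gene on the left and the rightward gene on the right, on chromosome I below 3703000, on chromosome II and on chromosome III below 2150187. It had to hold at least 1 probe midpoint and overlap no 500-bp window, in steps of 100 bp, with 75% or more A+T. The choice used gene direction and sequence and no measured value. Of 919 divergent gaps without an island in these stretches, 140 held no probe, and the other 124 of the 903 divergent gaps with a probe overlapped an island. In all, 6730 intervals were tested together, made of 2571 gaps and 4159 coding gene bodies. The annotated genes include their untranslated ends, so a gap runs from transcript start to transcript start.

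All cells carried the temperature-sensitive cdc25-22 allele, which stops them before mitosis at high temperature, and a deletion of rif1. In 2 arrays rif1 alone was deleted (rif1Δ), and in 2 arrays rad3 was deleted as well (rif1Δ rad3Δ). Cultures in EMM6S at 25 °C were held for 4 h at 36.5 °C, returned to 25 °C and given 6 mM hydroxyurea, which slows replication by lowering nucleotide pools. No strain with rif1, no untreated culture and no mock precipitation is among the arrays used here. Each ChIP was set against input DNA on the same array, and a level is the log2 of ChIP over input with the median of the array at 0. Nothing in the labels says that the arrays came from separate cultures, and a p-value here reflects array-to-array spread only, which may be technical.

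Rad52 loads the recombinase on single-stranded DNA and marks sites of recombination at broken or stalled forks. Rif1 holds back the firing of replication origins, and Rad3, the ATR kinase of fission yeast, restrains origins and protects forks when replication slows. Fission yeast origins have no short consensus sequence and lie mostly in A+T-rich intergenic DNA, often between divergent genes. A divergent gap also holds both promoters, with their nucleosome-poor start regions and often long A tracts.

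The members were 13 to 6775 bp long with a median of 802 bp, and their A+T content ran from 50.6% to 80%, with a median of 67.9%. The median gap held 3 probes of 60 nt. Of the 779, 183 rested on 1 probe and 596 on 2 or more. An annotated lncRNA gene lay in 607 of them, a long terminal repeat (LTR) in 61 and a tRNA gene in 29. Only 43 lay within 2 kb of an island window, and the median distance to one was 12785 bp.

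The centre 300 bases of 4 gaps are printed to show what kind of DNA lay where the strains differed strongly. They were read from the plus strand of the RefSeq reference ASM294v3. The gap tco89/urk1 (window chrIII:1555099-1555398) had one of the largest called rises, among members with 2 or more probes, from rif1Δ to rif1Δ rad3Δ. The gaps slp1/eng1 (chrI:997984-998283), ekc1/wtf14 (chrIII:1629654-1629953) and SPCC1235.17/SPCC1235.18 (chrIII:210138-210437) had the largest called falls among members with 2 or more probes, and among those slp1/eng1 and SPCC1235.17/SPCC1235.18 also had the highest called levels in rif1Δ. Capitals mark matches, on either strand, to any of 7 short motifs, whose letters are given with the motif search.
tco89/urk1: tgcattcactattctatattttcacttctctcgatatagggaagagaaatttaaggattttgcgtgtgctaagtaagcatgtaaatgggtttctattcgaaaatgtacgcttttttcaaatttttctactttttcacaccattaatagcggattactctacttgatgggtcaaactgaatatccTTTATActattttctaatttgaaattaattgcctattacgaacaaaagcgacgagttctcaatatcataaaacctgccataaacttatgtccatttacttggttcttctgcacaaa
slp1/eng1: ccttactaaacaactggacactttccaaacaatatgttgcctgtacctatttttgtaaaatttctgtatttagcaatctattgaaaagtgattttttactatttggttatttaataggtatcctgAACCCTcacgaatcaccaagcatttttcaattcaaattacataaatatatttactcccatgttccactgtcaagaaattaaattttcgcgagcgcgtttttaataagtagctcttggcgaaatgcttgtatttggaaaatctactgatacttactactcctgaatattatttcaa
ekc1/wtf14: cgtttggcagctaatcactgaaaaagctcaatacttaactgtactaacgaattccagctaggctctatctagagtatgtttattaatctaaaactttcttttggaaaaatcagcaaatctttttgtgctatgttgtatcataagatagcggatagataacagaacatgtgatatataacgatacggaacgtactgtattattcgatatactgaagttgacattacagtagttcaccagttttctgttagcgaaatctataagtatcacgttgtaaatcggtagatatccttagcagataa
SPCC1235.17/SPCC1235.18: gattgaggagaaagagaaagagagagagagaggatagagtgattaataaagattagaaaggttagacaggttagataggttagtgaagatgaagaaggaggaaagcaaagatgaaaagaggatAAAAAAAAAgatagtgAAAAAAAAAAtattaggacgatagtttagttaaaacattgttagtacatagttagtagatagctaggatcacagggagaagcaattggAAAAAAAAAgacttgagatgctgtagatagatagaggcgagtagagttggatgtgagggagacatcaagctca
The tco89/urk1 window was 68% A+T and held 1 match to TATAAA, on the minus strand. The slp1/eng1 window, at 69% A+T, held 1 match, to AACCCT. The SPCC1235.17/SPCC1235.18 window, at 65% A+T, held A tracts on the plus strand, and the ekc1/wtf14 window, at 66.7%, held no match.

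The deleted genes checked the labels. Signal inside rif1 was 0.867% to 3.48% of each array median, in both channels of all 4 arrays. Probes inside rad3 lay at 63.2% and 79.7% of the median in the ChIP channel of the rif1Δ arrays, and at 6.11% and 1.23% in rif1Δ rad3Δ. The input of the rif1Δ rad3Δ arrays is labelled cdc25-22 alone, but it lacked rif1 and rad3 signal too, so the input labels go against the data. Replicate 2 of rif1Δ rad3Δ was the dimmest array, with a median ChIP spot of 390 against 820.5 to 1114, and its header names a ChIP protocol where the others name a CGH protocol. Replicate 1 of both strains shared a slide. Over all intervals the replicates correlated at 0.593 in rif1Δ and 0.802 in rif1Δ rad3Δ.

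With rif1 deleted and rad3 present, divergent gaps without islands lay slightly below the array median in Rad52 signal. The median member stood at -0.05 on replicate 1 and -0.17 on replicate 2, and 373 of 779 (47.9%) were below 0 on both arrays, against 37.1% of all intervals. Coding gene bodies had medians of -0.01 and -0.02 on the same arrays, and tandem gaps without islands 0.00 and -0.02. Convergent gaps without islands, where genes end, stood at 0.19 and 0.27. By limma with Benjamini-Hochberg adjustment over all intervals, 4 members were called above the array median, against a background of 1.28% of all intervals, and 8 below it, against 0.208%. As shares of the members these are 0.513% and 1.03%.

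Among these few high gaps, slp1/eng1 (chrI:997636-998631, 996 bp, 5 probes) stood apart. It separates slp1, which encodes the activator of the anaphase-promoting complex, from eng1, which encodes the glucanase that splits the division septum. Its levels in rif1Δ were 2.595 and 2.089, or 2.34 ± 0.36 (SD, n = 2), a ChIP signal 5.07 times the array median (limma adjusted p = 0.00822). The enrichment was not confined to the gap: the eng1 body stood at 2.94 and 2.58 and the slp1 body at 1.20 and 0.96. The other 3 high members were SPCC576.19C/SPCC576.02 (1.43 and 1.45, 1 probe), SPCC1235.17/SPCC1235.18 (1.15 and 1.04, 2 probes) and pdc101/SPAC1F8.08 (0.70 and 0.67, 1 probe). The gene pdc101 encodes a putative pyruvate decarboxylase, and the flanking genes of the others are uncharacterised.

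Of the 8 members called low in rif1Δ, 3 rested on 2 or more probes. The lowest was pho7/cbp4, beside the gene of the phosphate regulator Pho7, at -0.879 and -1.002 (adjusted p = 0.0428). The gap SPAC688.12C/scn3 stood at -0.66 and -0.71, and pck2/rev7, between genes for a protein kinase C and a subunit of the translesion polymerase zeta, at -0.68 and -0.69. All 3 were below 0 on the rif1Δ rad3Δ arrays too. The 4 high and 8 low calls fell to 1 and 0 when either rif1Δ array was left out.

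Without Rad3 as well, the levels of these gaps, like those of all intervals, were spread more widely around the array median. The median member was at 0.16 and 0.07, and the standard deviation over members was 0.54 and 0.57, against 0.34 and 0.33 on the rif1Δ arrays. Over all intervals it was 0.48 and 0.52 against 0.33 and 0.35. In rif1Δ rad3Δ, 232 members were called above the array median, which is 29.8% against a background of 22.9%, and 135 below it, which is 17.3% against 18.9%. For comparison, 54.8% of divergent gaps with islands, 25.5% of tandem gaps, 33.2% of convergent gaps and 18.4% of coding gene bodies were called high. Leaving out rif1Δ rad3Δ replicate 1 or 2 lowered the share of members called high to 14.2% and 13.2%, and leaving out replicate 2 lowered the share called low to 4.88%.

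**Figure D1:**
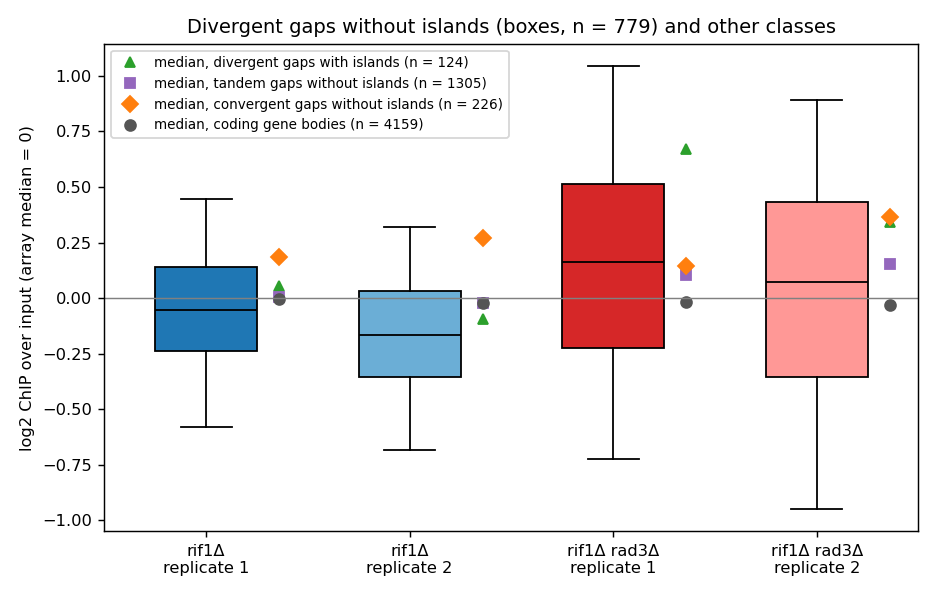
Level (log2 ChIP over input, array median at 0) of the 779 divergent gaps without islands on each array, as boxes from the lower to the upper quartile with the median as a line and whiskers from the 5th to the 95th percentile; symbols give the medians of other interval classes. The boxes are wider and their medians higher on the rif1Δ rad3Δ arrays (0.16 and 0.07) than on the rif1Δ arrays (-0.05 and -0.17).

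At the top in rif1Δ rad3Δ stood cox20/cdc20 (chrII:3253232-3253721), the promoter gap of cdc20, which in this yeast encodes the catalytic subunit of DNA polymerase epsilon. It measured 1.74 and 1.48, or 3.05 times the array median. The next were SPAC57A7.05/pabp (1.57 and 1.54), beside the gene of the major poly(A)-binding protein, ent1/vps60 (1.70 and 1.24), between an epsin gene and an endosomal sorting gene, and tco89/urk1 (1.42 and 1.42), between a TORC1 subunit gene and a uridine kinase gene. The other 6 of the 10 highest with 2 or more probes had mean levels of 1.21 to 1.41. They were SPBC18H10.18C/vps38, SPAC6C3.03C/cit1, wdr7/SPBC16H5.12C, SPAC110.06/ppk1, cox7/rep2 and SPBP35G2.17/txc1. In 23 members both rif1Δ rad3Δ arrays exceeded 2 times the array median, and in 4 members both rif1Δ arrays did. This was not counted over all intervals, whose levels were also spread more widely in rif1Δ rad3Δ.

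Among members with 2 or more probes the lowest in rif1Δ rad3Δ was rps2/rps20, the shared promoter gap of 2 genes for small-subunit ribosomal proteins, at -1.09 and -1.52. In rif1Δ it measured -0.730 and -0.725 (adjusted p = 0.0665). Next came ekc1/wtf14 (-0.94 and -1.46), mtr3/uba1 (-0.86 and -1.44), ubp1/luc7 (-0.87 and -1.34) and wpl1/cdt1 (-0.68 and -1.51). The last lies between genes for a cohesin release factor and for Cdt1, which licenses origins. In each of these 5 gaps replicate 2 was the lower array.

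The comparison of the strains asks how loss of Rad3 changes Rad52 signal at these gaps when Rif1 is already missing. The median difference, rif1Δ rad3Δ minus rif1Δ, was 0.20 over the members, against 0.02 over all intervals and -0.04 over coding gene bodies. It was 0.54 in divergent gaps with islands, 0.10 in tandem gaps and -0.02 in convergent gaps. The difference was above 0 in 65.6% of members, against 52.3% of all intervals. It was above 0 in 58.9% of tandem gaps, 49.6% of convergent gaps and 93.5% of divergent gaps with islands. Between the replicate 1 arrays on 1 slide the median was 0.19, and between the replicate 2 arrays 0.23. In 434 members both pairs gave a value above 0, and in 179 both gave one below. Neither count was made over all intervals.

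By limma with Benjamini-Hochberg adjustment over all intervals, 92 members rose, which is 11.8% against a background of 4.7%, and 10 fell, which is 1.28% against 1.74%. At an unadjusted limma p under 0.05 the counts were 249 and 65 of the 779 members. They were 260 and 96 of 1305 tandem gaps without islands, and 599 and 714 of 4159 coding gene bodies. Divergent gaps with islands gave 66 and 2 of 124, and convergent gaps without islands 26 and 19 of 226. These unadjusted counts were not made over all intervals. The arrays of the strains did not overlap, with rif1Δ rad3Δ higher, in 364 members (46.7%, background 33.4%), and lower in 137 (17.6%, background 29.3%). The lowest adjusted p was 0.0438, so all calls lay close to the threshold of 0.05. None of the 102 was called when any 1 of the 4 arrays was left out, with normexp background correction, with the arrays scaled to one spread or with the A+T trend removed, although all 102 kept their direction under each of these. Testing only intervals with 2 or more probes raised the shares that rose and fell to 26.5% and 3.19%. That fit has its own background, which is not given here, so 4.7% and 1.74% do not apply to it. With 2 arrays in each strain, the smallest p of an exact permutation test is 0.333.

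**Figure D2:**
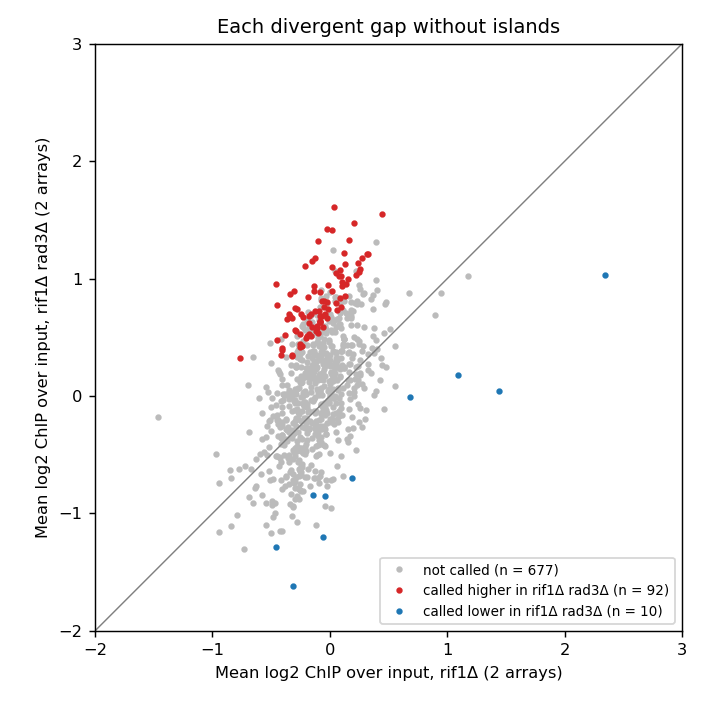
Mean level in rif1Δ (x, 2 arrays) against mean level in rif1Δ rad3Δ (y, 2 arrays), both log2 ChIP over input, for each of the 779 gaps; the grey line marks equal levels. The 92 gaps called higher in rif1Δ rad3Δ lie near 0 on the x axis and above 0 on the y axis, while slp1/eng1 is the point farthest right, at 2.34 and 1.03.

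All 92 members that rose were also called above the array median in rif1Δ rad3Δ. Both calls rest on the same fit and the same 2 rif1Δ rad3Δ arrays, so this overlap is partly built in. The rises ran from 0.64 to 1.57. At cox20/cdc20 the levels were 0.15 and -0.08 in rif1Δ and 1.74 and 1.48 in rif1Δ rad3Δ, a rise of 1.57 ± 0.16 (standard error, adjusted p = 0.0438). The signal there extended into cox20, a gene for a respiratory chain assembly factor, whose body stood at 1.76 and 1.62 in rif1Δ rad3Δ. The cdc20 body did not share it, at -0.13 and -0.17.

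At tco89/urk1 (chrIII:1554498-1555998) the levels were 0.13 and -0.18 against 1.42 and 1.42, a rise of 1.45 ± 0.15 (adjusted p = 0.0438). At ura3/cdc17, which lies between a pyrimidine synthesis gene and the gene of replicative DNA ligase, they were -0.16 and -0.45 against 1.14 and 0.66, a rise of 1.21 ± 0.21. At ctf18/nem2 they were -0.28 and -0.40 against 1.07 and 0.67, a rise of 1.21 ± 0.17, and Ctf18 is part of an alternative clamp loader that acts in replication and cohesion. The groups did not overlap at any of these gaps.

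The other 8 of the 12 largest rises, among members with 2 or more probes, lay between 1.17 and 1.42. They were wdr7/SPBC16H5.12C, SPBC18H10.18C/vps38, mug182/coa2, ime4/ppk8, ghs2/cul1, ent1/vps60, smp2/did2 and SPAC6C3.03C/cit1. The gene cul1 encodes the cullin of SCF ubiquitin ligases, coa2 a cytochrome oxidase assembly factor, did2 an ESCRT-III subunit and cit1 citrate synthase. The gaps SPBC18H10.18C/vps38 and ent1/vps60 hold an LTR, and whether their probes also catch other LTR copies was not tested.

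The 10 falls included 6 gaps with 2 or more probes. At slp1/eng1 the levels went from 2.595 and 2.089 to 1.21 and 0.85, a difference of -1.31 ± 0.23 (adjusted p = 0.0463). That gap was still called above the array median in rif1Δ rad3Δ (adjusted p = 0.0087), and the eng1 body went from 2.94 and 2.58 to 0.92 and 0.77. At SPCC1235.17/SPCC1235.18 (chrIII:209766-210808) the levels went from 1.15 and 1.04 to 0.35 and -0.00, a difference of -0.92 ± 0.17.

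The other 4 falls with 2 or more probes began near 0 in rif1Δ and ended below it. At ekc1/wtf14 (chrIII:1629375-1630232), which holds an LTR and lies beside a gene of the wtf spore-killer family, levels of -0.19 and 0.07 became -0.94 and -1.46, a difference of -1.14 ± 0.21. Differences of -0.88, -0.82 and -0.70 were found at cox8/med9, mrs3/prr1 and cyt2/mvd1. These flank genes for a Mediator subunit, the stress transcription factor Prr1 and a mevalonate pathway enzyme. Of the 4 falls that rested on 1 probe, SPCC576.19C/SPCC576.02, rpl1701/ebs1, lsm3/mrpl10 and pdc101/SPAC1F8.08, the differences were -1.39, -1.30, -0.83 and -0.69.

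**Figure D3:**
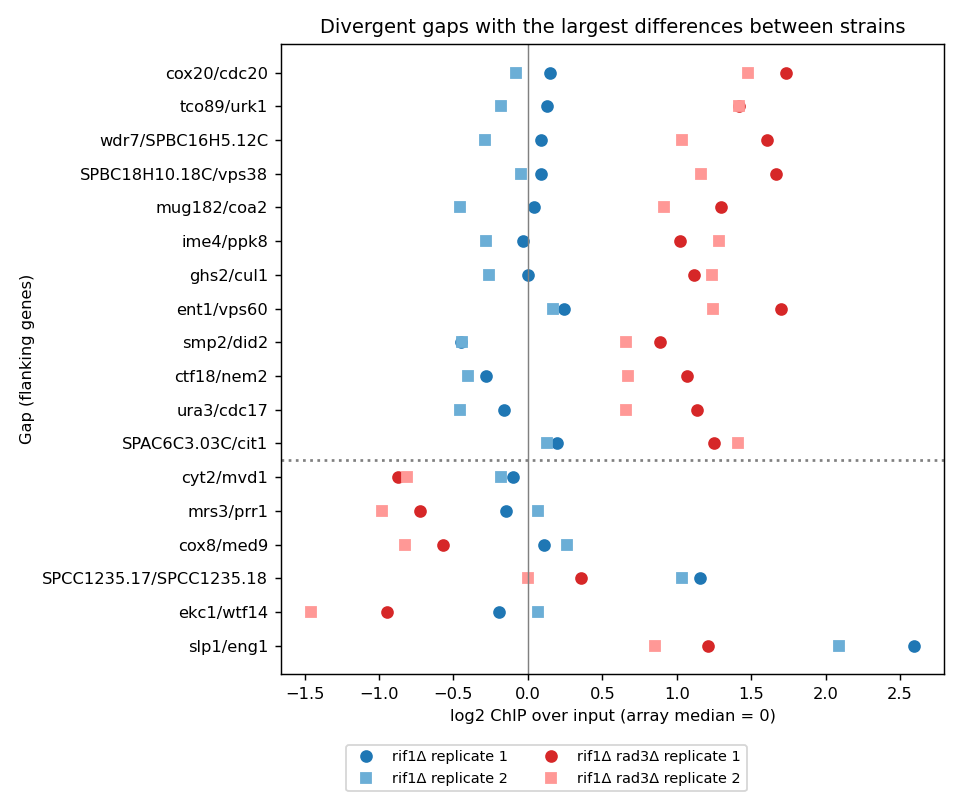
Level on each array (x, log2 ChIP over input, array median at 0) of the gaps with the 12 largest rises, above the dotted line, and the 6 falls with 2 or more probes, below it. Blue marks are the rif1Δ arrays and red marks the rif1Δ rad3Δ arrays. The colours do not overlap in any gap shown, because gaps were picked on that condition. Only slp1/eng1 is above 2.

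Each gap was next set against its own 2 flanking gene bodies, which 763 members had measured. The median gap minus the mean of its flanks was -0.05 and -0.18 on the rif1Δ arrays and 0.13 and 0.06 on the rif1Δ rad3Δ arrays. In rif1Δ, 54 gaps (7.08%) exceeded both flanks on both arrays and 205 (26.9%) lay below both. In rif1Δ rad3Δ this was turned round, with 216 (28.3%) above and 104 (13.6%) below. Such counts were not made for other classes of gap, so they do not show a trait of divergent gaps alone. Of the 92 gaps that rose, 61 exceeded both flanking genes on both rif1Δ rad3Δ arrays, as did 130 of the 229 with measured flanks that were called high in rif1Δ rad3Δ. Both sets were picked by high levels on those same arrays, so these counts are partly built in and only describe the gaps.

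Averaged by distance from the gap centre, the probes of the members gave a shallow trough or a shallow rise. In the 250 bp to the right of the centre the means were -0.02 and -0.15 in rif1Δ and 0.18 and 0.05 in rif1Δ rad3Δ. Only replicate 2 showed a clear trough in rif1Δ, and only replicate 1 showed a clear central rise in rif1Δ rad3Δ. On replicate 2 of rif1Δ rad3Δ the mean was higher, at 0.12, between 1250 and 1500 bp to the right than at the centre. Divergent gaps with islands reached 0.81 and 0.50 in rif1Δ rad3Δ in the 250 bp to the left of the centre. In the 250 bp to the right, tandem gaps without islands stood at 0.12 and 0.17 in rif1Δ rad3Δ, and convergent gaps without islands at 0.19 and 0.35.

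**Figure D4:**
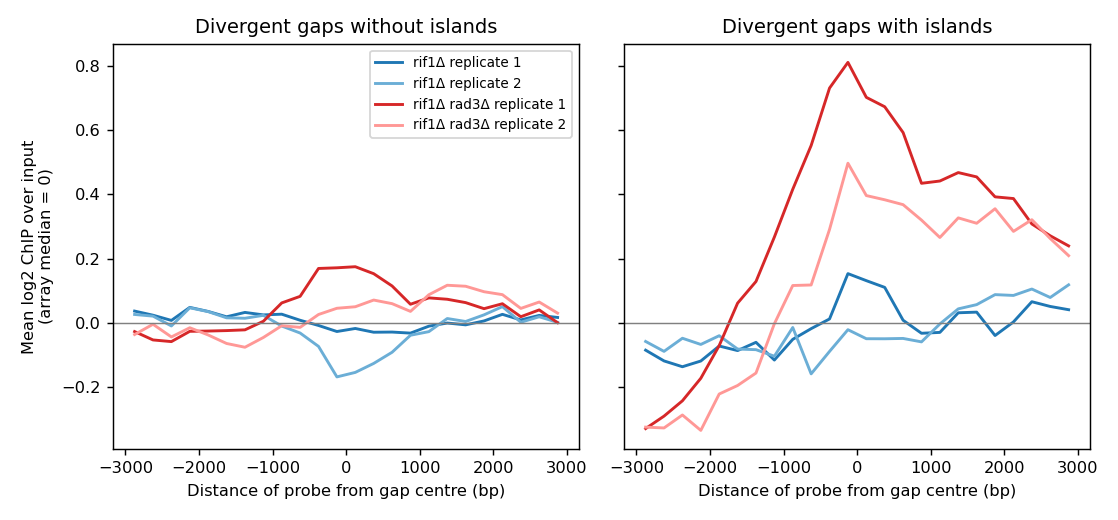
Mean log2 ChIP over input (y) by distance of the probe midpoint from the gap centre in 250-bp steps (x, bp along the chromosome) for divergent gaps without islands (left) and with islands (right), 1 line per array. The lines of gaps without islands stay between -0.17 and 0.18, while those of gaps with islands reach 0.81 and 0.50 in rif1Δ rad3Δ.

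Base composition divided the members most clearly. Each was placed by the A+T content of the richest 500-bp window that touches it, which under the choice of members is always below 75%. These classes also differ in length. The median gap was 238 bp with 1 probe under 66%, and 1100.5 bp with 4 probes at 72% to 75%. For short gaps the window reaches into the flanking genes. The median difference was -0.29 in the 74 gaps under 66% and -0.14 in the 87 at 66% to 68%. It was 0.07 in 173 gaps at 68% to 70%, 0.27 in 225 at 70% to 72% and 0.53 in 220 at 72% to 75%. In the lowest class 4 gaps fell and none rose, and in the highest 41 (18.6%) rose and none fell, where 4.7% of all intervals rose and 1.74% fell. Across members the richest window correlated with the difference at Pearson r = 0.512 (Spearman 0.528, n = 779), a description only, since the gaps share arrays and neighbouring places.

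The gradient came from the rif1Δ rad3Δ arrays. Their medians climbed from -0.47 and -0.42 in the class under 66% to 0.54 and 0.36 in the class at 72% to 75%. The rif1Δ medians went from -0.22 and -0.17 to 0.03 and -0.17. The island threshold cut through this gradient without a step. The 127 gaps just under it, at 73% to 75%, had a median difference of 0.57, and the 74 divergent gaps just over it, at 75% to 77%, one of 0.58.

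A lower A+T threshold for an island, which leaves out more gaps, turned the direction. The gaps that remain are those of the classes under 70% given above. The 334 divergent gaps with no window of 70% A+T or more had median levels of -0.16 in rif1Δ and -0.20 in rif1Δ rad3Δ and a median difference of -0.05. The trend of each array with the A+T of the 500 bp around each probe was also removed, over the probes in the stretches used. The median of the 779 was then -0.01 in rif1Δ rad3Δ and the median difference 0.07.

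Longer gaps also differed more. The median difference was -0.01 in the 217 gaps under 500 bp, 0.21 in 269 of 500 to 1000 bp, 0.37 in 223 of 1000 to 2000 bp and 0.29 in 70 of 2000 bp or more. Length and A+T each went with the difference when the other was held in 1 class. Here A+T is that of the gap itself, which correlated with the difference at Pearson r = 0.391, against 0.512 for the richest window. Under 1000 bp, gaps with less than 68% A+T had a median of -0.09 and those with more 0.27. Above 1000 bp these were 0.14 and 0.56. Short gaps hold few probes, and the 183 members with 1 probe had a median difference of -0.06 against 0.38 in the 199 with 5 or more.

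**Figure D5:**
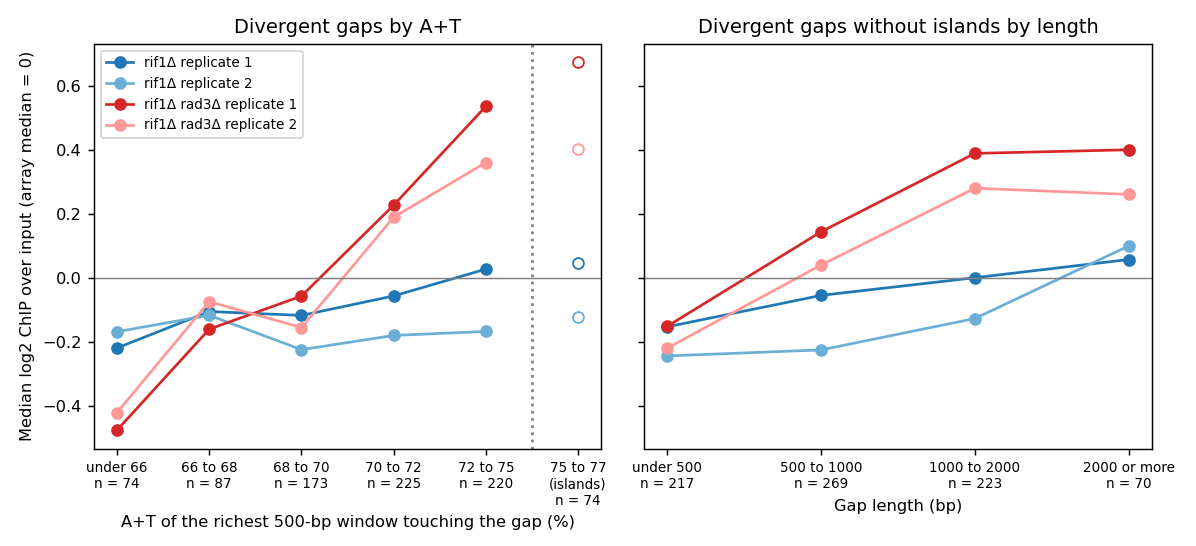
Median level on each array (y, log2 ChIP over input) of divergent gaps by the A+T content of the richest 500-bp window touching them (left, %) and of those without islands by length (right, bp); open circles past the dotted line are gaps with islands at 75% to 77%. On the left the rif1Δ rad3Δ lines climb with A+T from below -0.4 to 0.54 and 0.36, while the rif1Δ lines stay between -0.22 and 0.03. On the right the rif1Δ lines go from -0.15 and -0.24 under 500 bp to 0.06 and 0.10 at 2000 bp or more. The rif1Δ rad3Δ lines there go from -0.15 and -0.22 to 0.40 and 0.26.

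Intervals of like length and composition were compared to see what was left to the class. Among intervals of 500 to 1500 bp with 68% to 72% A+T, the median difference was 0.41 in 238 members, 0.16 in 210 tandem gaps and -0.05 in 29 convergent gaps. It was 0.73 in 21 divergent gaps with islands and 0.44 in 57 coding gene bodies. Coding genes as rich in A+T as the members thus had a median at least as high as theirs. The tandem and convergent gaps had lower median differences, but started higher in rif1Δ, at medians of -0.005 and 0.26 against -0.13. In rif1Δ rad3Δ their medians were 0.27 and 0.45, against 0.27 in the members. No test of these class differences was made.

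Other features went with smaller differences. By chromosome the median difference was 0.17 on I, 0.23 on II and 0.21 on III. By distance to the nearest island it lay between 0.14 and 0.26 in 5 classes with no order, and the 736 members 2 kb or more away had a median of 0.20. The 29 gaps with a tRNA gene stood above the array median in both strains, at 0.15 and 0.24, as did 6 gaps with an snRNA or snoRNA gene, at 0.44 and 0.26. The 607 with an annotated lncRNA had a median difference of 0.26 and the 172 without one -0.02, but the latter were short, with a median of 309.5 bp.

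The motif search covered the centre 300 bases of the 651 members at least that long, on both strands. Matches of TATAAA, the TATA box, were found in 50.5% of windows and of AAAAAAA in 39.5%, and these may share bases. GTAAACA, the forkhead core, matched in 14.4%, and AACCCT, the histone box, in 8.29%. Windows with TGACGT, the CRE-like core, made up 2.76%, and those with ACGCGT, the box of the G1/S factor MBF, 2.61%. CAGTCAC, the HomolD box of ribosomal protein genes, matched in 1.38%. Gaps with an A run had a median level of 0.31 in rif1Δ rad3Δ against 0.10 without one, at a median A+T of 68.6% and 68.1%. Their median differences were 0.37 and 0.21. For the other 6 motifs the median difference was 0.13 to 0.31 with a match and 0.23 to 0.26 without.

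Gaps beside genes of known pathways were counted over whole lists. Among all members 11.8% rose and 1.28% fell, and among all intervals 4.7% and 1.74%. Most lists hold too few members for their counts to be told from these shares. The lists also differ in A+T content and gap length, with which the difference went over all members. Of 10 members beside DNA replication genes, cox20/cdc20 rose and none fell, with a median difference of 0.29. In rfc5/wdr74, beside a clamp loader gene, the levels were -0.21 and -0.34 against 0.33 and 0.46 (adjusted p = 0.0519). In rad4/spt5, beside the gene of an origin-firing factor, they were 0.01 and -0.34 against -0.81 and -0.73 (adjusted p = 0.0788). The gap hsp104/pcn1, beside the gene of the sliding clamp, measured 0.30 and 0.05 against 0.85 and 0.54 (adjusted p = 0.111).

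None of the 5 members beside G1/S targets of MBF was called, and their median difference was -0.23. The extremes among them were wpl1/cdt1 at -0.98 (adjusted p = 0.114) and SPCC338.18/rad21, beside the cohesin gene rad21, at 0.71 (adjusted p = 0.0811). Among the 4 members beside cell separation genes, slp1/eng1 fell and sep1/dss4, beside the gene of a forkhead factor of that program, rose. The latter went from -0.21 and -0.35 to 0.81 and 0.68, a rise of 1.02 ± 0.14 (adjusted p = 0.0462), and it holds an LTR. The differences of adg3/SPCC18.02 and fkh2/ntu1 were -0.44 and 0.25 (adjusted p = 0.101 and 0.227).

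The 45 members beside cytosolic ribosomal protein genes had a median difference of -0.08, with 1 called lower and none higher. In rif1Δ rad3Δ 13 of the 45 were called below the array median and 2 above it, where 18.9% and 22.9% of all intervals were. These 45 had a median A+T of 66.1% and a median length of 542 bp. Of the 245 members under 1000 bp with less than 68% A+T, 91 were called below the array median in rif1Δ rad3Δ and 27 above it. Whether the 45 differ from gaps of like A+T and length was not tested. The one that fell, rpl1701/ebs1, rested on 1 probe and went from -0.60 and -0.03 to -1.50 and -1.74. The gap rps2/rps20 differed by -0.58 (adjusted p = 0.1) and rpl35A02/rad60 by -0.70 (adjusted p = 0.0816).

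Of 6 members beside glycolysis and fermentation genes, with a median difference of -0.53, 1 rose and 1 fell. Their median A+T was 62.0%, and the 113 members under 64% A+T had a median difference of -0.11. The gap mug114/hxk2, beside a hexokinase gene, went from 0.03 and 0.23 to 0.86 and 0.85, a rise of 0.72 ± 0.14 (adjusted p = 0.0482). The gap pdc101/SPAC1F8.08 fell by 0.69 ± 0.13 (adjusted p = 0.0469), from 0.70 and 0.67 to 0.053 and -0.065. In mug124/fba1, beside the aldolase gene, the levels were -0.33 and -0.24 against -0.91 and -1.23 (adjusted p = 0.0505). In adh4/SPAC5H10.07, beside an alcohol dehydrogenase gene, they were 0.46 and 0.47 against -0.06 and -0.17 (adjusted p = 0.0579).

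No gap was called among 9 beside recombination repair and checkpoint genes (median difference -0.12), 6 beside stress genes (0.31) and 3 beside sulphur metabolism genes (0.34). The 9 had a median length of 346 bp, and the 217 members under 500 bp had a median difference of -0.01. At an adjusted p of 0.0586, the gap of wis1, the stress MAP kinase kinase, measured -0.11 and 0.14 against 0.73 and 0.62. Of 4 members beside genes of mitosis and its control, slp1/eng1 was the 1 called. In cut2/tim44, beside the securin gene, the levels were -0.08 and -0.19 against 0.41 and 0.31 (adjusted p = 0.0774). The only member beside core histone genes, hht3/hhf3, rested on 1 probe and differed by -0.54 (adjusted p = 0.219).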

How the data were processed

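Rad52 ChIP DNA and input DNA were hybridised to 4 Agilent 2-colour tiling arrays, 2 for each strain, whose 60-nt probes lie a median of 265 bp apart. Per the labels, input was labelled with Cy5 and ChIP with Cy3; the protocol fields speak of RNA, while the channel labels name input and IP. Per the submitters' processing notes the scanner software was Agilent Feature Extraction 10.7.3.1. Values started from the deposited intensity of each channel after processing, with background subtracted and dyes normalised per the file headers, and deposited median spot intensity served for 1 alternative. The deposited log10 value, Cy5 over Cy3, was used to check direction only. A deposited table of the authors gives a linear ratio of Cy3 over Cy5, uncentred, with column medians of 0.985, 1.01, 0.968 and 1.01, and was an alternative.

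The log2 of ChIP over input was taken per probe and centred on each array's median over chromosomes I to III, without loess or quantile steps. The 97 outlier probes were left out, which left 42548, of which 35327 lay in the stretches used. Intervals were means over probes whose midpoints they held. The fit used lmFit and eBayes of limma 3.58.1 (R 4.3.3) over all 6730 intervals and 4 arrays, and every adjusted p given comes from that fit, with a threshold of 0.05. The limma step was tested on simulated data. The number of arrays limits the precision. The file headers name a Feb2002 build, and genes come from ASM294v3. Probe brightness followed local GC content at an offset of 0 to -30 bp in these stretches (r = 0.224 to 0.259, against at most 0.127 beyond 100 bp), and not on chromosome I beyond them.

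Gaps are named by their flanking genes. Those given were the 10 highest and 5 lowest of each strain and the 12 largest rises and falls, among called members with 2 or more probes, up to 4 per gene list by absolute difference, and gaps beside wee1, SPBC56F2.05c, eng1, adh1, rga7, rad52 or cdc25. Of the last, slp1/eng1 alone was a member. The 12 largest rises and falls were also limited to gaps where the arrays of the strains did not overlap. Members called on 1 probe were named after their values were seen. The members and lists were chosen with earlier results of these data known. Ribosomal protein genes were those with such a symbol and product. Motif windows, planned for a promoter table, were read from the genome sequence. The sequence of 1 named gap and 1 motif are not reported here.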

Additional observations from a re-analysis of the deposited data

How the results depend on the processing

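Medians and shares called were recomputed under each alternative. The median level in rif1Δ stayed below 0 throughout, and the median difference stayed above 0 except in 2 subsets of gaps. With islands set at 70% A+T (334 gaps), the median was -0.20 in rif1Δ rad3Δ and -0.051 for the difference. For the 161 gaps with no RNA gene, repeat or special region, the medians were -0.20 in rif1Δ, -0.20 in rif1Δ rad3Δ and -0.0011 for the difference. RNA genes here include lncRNA genes, and the 172 members without a lncRNA were short, with a median of 309.5 bp and 1 probe. Removing the A+T trend gave -0.0105 in rif1Δ rad3Δ and 0.068 for the difference, and with 2 or more probes the rif1Δ rad3Δ median was 0.20. Within the slide that holds both strains the median difference was 0.19. Where the fit was rerun, the share of all intervals called may move as well and is not given here. The other values that moved are shares of members called higher and lower. For the difference these were 0% and 0% with normexp, with one spread and with the A+T trend removed, 7.32% called higher with the median of probes, and 0.385% lower with centring on the mode. They were 26.5% and 3.19% with 2 or more probes, 26.8% and 5.65% with the replicate block, 4.79% and 2.69% with islands at 70%, 4.97% higher with no RNA gene, and 2.20% lower with well measured probes. In rif1Δ rad3Δ they were 11.4% and 32.9% with islands at 70%, and 14.3% and 30.4% with no RNA gene. In rif1Δ they were 0.899% higher with normexp, 1.93% and 5.01% with one spread, 1.68% and 1.68% with 2 or more probes, 0.778% higher with well measured probes, 2.70% and 8.99% with the replicate block, 1.20% higher with islands at 70%, and 1.86% and 4.35% with no RNA gene. Leaving out 1 array gave 0.128% to 0.642% called higher and 0% to 1.41% lower in rif1Δ, 13.2% to 29.0% and 4.88% to 16.8% in rif1Δ rad3Δ, and 0% and 0% for the difference; an array left alone was assumed to vary like the other strain. The medians then ran from -0.17 to -0.05 in rif1Δ, from 0.07 to 0.16 in rif1Δ rad3Δ and from 0.16 to 0.25 for the difference. Causes of these shifts were not tested. Of the 102 members called for the difference, 75 kept the call with centring on the mode, 61 with the median of probes, 99 with probes well above background, and 102 with the replicate block and with the authors' table. Replicate 1 deviations of the strains correlated at 0.355 over all intervals, but with 2 pairs and no label of pairing the number was not taken to pair arrays. The correlation within slides could not be estimated, because 1 slide alone holds 2 arrays, so the slide as a random block was not run. The alternatives without small RNA genes and LTRs and without the gaps beside rif1 and rad3 were added after seeing the data, and gave median differences of 0.21 and 0.20.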
